A study of Mus musculus with 12 samples.

Results

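Rapamycin given alone, without any challenge to the vessel wall, was compared with its vehicle in the aorta of C57BL/6J mice. The comparison used 6 of the 12 arrays of the series, chosen by their treatment labels: 3 aortas from mice given rapamycin and 3 from mice given dimethylsulfoxide (DMSO). The other 6 arrays came from mice that also received β-aminopropionitrile (BAPN, 150 mg/kg/day) and angiotensin II (AngII, 1 µg/kg/min), the challenge that the study used to cause aortic dissection, with DMSO (BA+DMSO, 3 arrays) or with rapamycin (BA+rapamycin, 3 arrays). Per the methods, adult male mice were used. Rapamycin (2 mg/kg/day) was dissolved in DMSO and injected into the peritoneum once a day, the DMSO mice received the vehicle, and the aorta was taken on day 3. The treatment label of each unchallenged group was DMSO or rapamycin alone, without BAPN or AngII. That the rapamycin mice also received the vehicle rests on the methods, which give it as the solvent. The sample titles of the DMSO group begin with Pre, a word the study also uses for tissue taken before the challenge, so that it is uncertain whether and for how long these mice were given the vehicle. If they were not, drug, vehicle and handling cannot be told apart in any difference given here. The labels give no animal numbers, so the p-values describe the spread between these 6 samples.

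Rapamycin is a macrolide that binds the small protein FKBP12. The pair blocks mTOR complex 1, a kinase that senses amino acids, energy and growth factors, and long treatment can also limit the assembly of mTOR complex 2. mTOR complex 1 promotes the translation of mRNAs of ribosomal proteins, which begin with a run of pyrimidines, the processing of the SREBP factors that switch on sterol and fatty acid synthesis, the translation of ATF4, mitochondrial gene programmes and entry into the cell cycle, and it holds back autophagy. The drug is used against transplant rejection and on coated stents, where it limits the growth of smooth muscle cells, the main cell of the aortic media.

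RNA was measured on 1-colour Agilent mouse arrays, and each value below is a log2 normalized intensity, that is the log2 signal of a probe minus the 75th percentile of log2 signal on its array, so that a difference of 1 is a 2-fold difference. Between 49.1% and 53.1% of probes stood well above background on the 6 arrays, and the 75th percentile lay between 221 and 337 intensity units, highest on rapamycin replicate 3. No spot was saturated. Across probes, arrays correlated at 0.988 to 0.990 within DMSO, 0.990 to 0.993 within rapamycin and 0.983 to 0.992 between the groups. All 3 DMSO arrays and rapamycin replicate 1 lay on slide 1, whereas rapamycin replicates 2 and 3 lay on slide 2, so that within a slide the comparison rests on rapamycin replicate 1 alone. A date in the titles was shared by replicates 2 and 3 of both groups. Replicate 1 of each group had a date of its own, so that within a date the comparison rests on replicates 2 and 3. Of these, the DMSO arrays lay on slide 1 and the rapamycin arrays on slide 2. All 8 smooth muscle markers (*Myh11*, *Acta2* and others) and all 6 endothelial and 6 fibroblast markers stood above background on every array, and 7 of 8 markers of liver, kidney and adrenal gland on none. In pieces of whole tissue, fewer cells of a type and less RNA per cell cannot be told apart.

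The differences were small in number after correction and wide in reach before it. Of 27349 probes tested, 3 passed an adjusted p under 0.05 (0.011%), all lower in rapamycin, among them *Cck* and *Cdca5*. At an unadjusted p under 0.05 there were 4082 probes (14.9%). With 1 probe per gene, the 3 rapamycin arrays lay above all 3 DMSO arrays for 2106 of 19715 genes (10.7%) and below them for 2340 genes (11.9%), and these 2 shares are the background for every gene list below. The median difference over all genes was -0.01. The number of calls depended on the fit. With slide as a fixed block there were 0 (smallest adjusted p = 0.153), and with the title date as a block 0 (0.0929). Trend and robust moderation gave 336 on the same 6 arrays, normexp background correction 170, slide as a random block 137 and array weights 113. Leaving out DMSO replicate 1, 2 or 3, or rapamycin replicate 2 or 3, left 0 calls with smallest adjusted p-values of 0.0645 to 0.158 and 2707 to 4223 probes at an unadjusted p under 0.05, and leaving out rapamycin replicate 1 gave 6 calls that shared only *Cck* with the 3.

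*Cck* encodes cholecystokinin, a peptide hormone of gut and brain. Its log2 normalized intensity was 0.69, 0.64 and 0.64 on the DMSO arrays and -0.95, -1.28 and -1.15 on the rapamycin arrays. The groups were far apart, the DMSO arrays were nearly equal, and the level fell by 1.79 ± 0.12 on the log2 scale (SE, n = 3 per group, adjusted p = 0.0263), to 0.290 of the DMSO level. *Cck* no longer passed under 11 of 23 alternative settings, among them slide or the title date as a block. Over all 23 the difference of *Cck* lay between -1.87 and -1.41. Its probe maps to chr9:121398943-121399002 of the mouse build mm9, and the files do not say in which exon. *Cck* was also lower with rapamycin under challenge, on arrays that share no sample with these, by -3.26 (adjusted p = 0.00617 in the fit of all 12 arrays), and by -3.36 (adjusted p = 0.00166) without BA+DMSO replicate 2, an array that stood apart from its group.

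*Cdca5* encodes sororin, which holds sister chromatids together until mitosis. It stood at -3.35, -2.95 and -3.04 in DMSO and at -5.28, -5.03 and -4.97 in rapamycin, where it was not well above background on any array. It was thus at least 1.95-fold lower, with a fitted difference of -1.98 (adjusted p = 0.0377, probe at chr19:6091709-6091768, mm9). It entered the test through the DMSO arrays alone, and its rapamycin values are background, so that this p carries less weight than that of *Cck*. *Cdca5* no longer passed under 16 of 22 alternative settings, slide and the title date as a block among them.

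The sterol and fatty acid synthesis genes were the group furthest below their DMSO levels. Of 38 members tested, 29 (76.3%) were lower on all 3 rapamycin arrays than on all 3 DMSO arrays, none was higher on all 3, 1 passed the test, and the median difference was -0.58. The median over the members was -0.48 on rapamycin replicate 1, -0.65 on replicate 2 and -0.61 on replicate 3, against 0.11, -0.02 and -0.10 on the DMSO arrays. The array on the slide of the DMSO samples therefore lay below them as well. These genes share regulation by SREBP2 and SREBP1, membrane-bound factors that are released when sterols are low, and their promoters often combine a sterol element with a CCAAT box. To show these elements, the 250 bases before the start of *Hmgcs1*, *Idi1* and *Insig1* are printed from RefSeq (build GRCm38.p6), with a TCACCCCAC element and CCAAT boxes, on either strand, in capitals.
Hmgcs1: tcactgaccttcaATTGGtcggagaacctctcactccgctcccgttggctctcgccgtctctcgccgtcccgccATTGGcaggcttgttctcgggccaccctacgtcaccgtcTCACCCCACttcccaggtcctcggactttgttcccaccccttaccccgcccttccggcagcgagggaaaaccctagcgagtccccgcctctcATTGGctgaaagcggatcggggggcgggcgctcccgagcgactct
Idi1: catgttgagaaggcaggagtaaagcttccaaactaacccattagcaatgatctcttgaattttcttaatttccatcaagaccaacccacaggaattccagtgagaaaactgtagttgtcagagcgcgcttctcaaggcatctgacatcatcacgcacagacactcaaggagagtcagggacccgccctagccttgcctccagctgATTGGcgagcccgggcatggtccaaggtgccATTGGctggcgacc
Insig1: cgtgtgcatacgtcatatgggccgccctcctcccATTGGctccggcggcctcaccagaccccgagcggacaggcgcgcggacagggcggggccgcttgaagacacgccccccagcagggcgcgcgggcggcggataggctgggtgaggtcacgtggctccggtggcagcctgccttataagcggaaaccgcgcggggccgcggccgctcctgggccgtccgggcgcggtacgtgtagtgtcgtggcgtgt

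*Hmgcs1* (chr13:119690101-119690350, plus strand) makes HMG-CoA, *Idi1* (chr13:8885356-8885605, plus strand) the activated isoprene unit, and *Insig1* (chr5:28071162-28071411, plus strand) holds the SREBP escort protein in the endoplasmic reticulum. All CCAAT boxes printed lie on the opposite strand and read ATTGG, and none overlaps the TCACCCCAC element. In windows of 250 bases before to 50 after the start, CCAAT was present in 24 of 36 promoters of the list, covering 23 of the 27 genes with an entry, and in 37.4% of all 32851 promoters. TCACCCCAC was present in 1 of the 36, that of *Hmgcs1*, and in 0.551% of all. Among the 11 members with no entry were *Sqle*, *Fdps* and *Scd2*.

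*Idi1* stood at 2.43, 2.06 and 2.06 in DMSO and at 0.63, 0.33 and 0.89 in rapamycin, a difference of -1.56 ± 0.18 (adjusted p = 0.0600). *Dhcr7*, which acts in the last steps of cholesterol synthesis, stood at -1.64, -1.70 and -1.67 against -2.78, -2.85 and -3.12 (-1.25 ± 0.12, adjusted p = 0.0535). Neither gene overlapped between the groups, and neither passed the test.

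*Sqle*, which makes squalene epoxide, differed by -1.17 ± 0.13 (adjusted p = 0.0600). Further members, named here after their values were seen, were *Insig1* (-1.22), *Fdps* (-1.16), *Hsd17b7* (-1.1), *Cyp51* (-1.03), *Sc4mol* (-0.87), *Mvk* (-0.77) and *Hmgcs1* (-0.70). The genes of the factors themselves were nearer to DMSO, with *Srebf2* at -0.49, *Srebf1* at -0.41 and their escort *Scap* at -0.01. Of the enzymes that build fatty acids, *Fasn* differed by -0.26, *Acaca* by -0.18 and *Acly* by -0.12. The 2 stearoyl-CoA desaturases went apart, *Scd2* at -0.90 without overlap and *Scd1* at 0.30 with overlap.

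**Figure D1:**
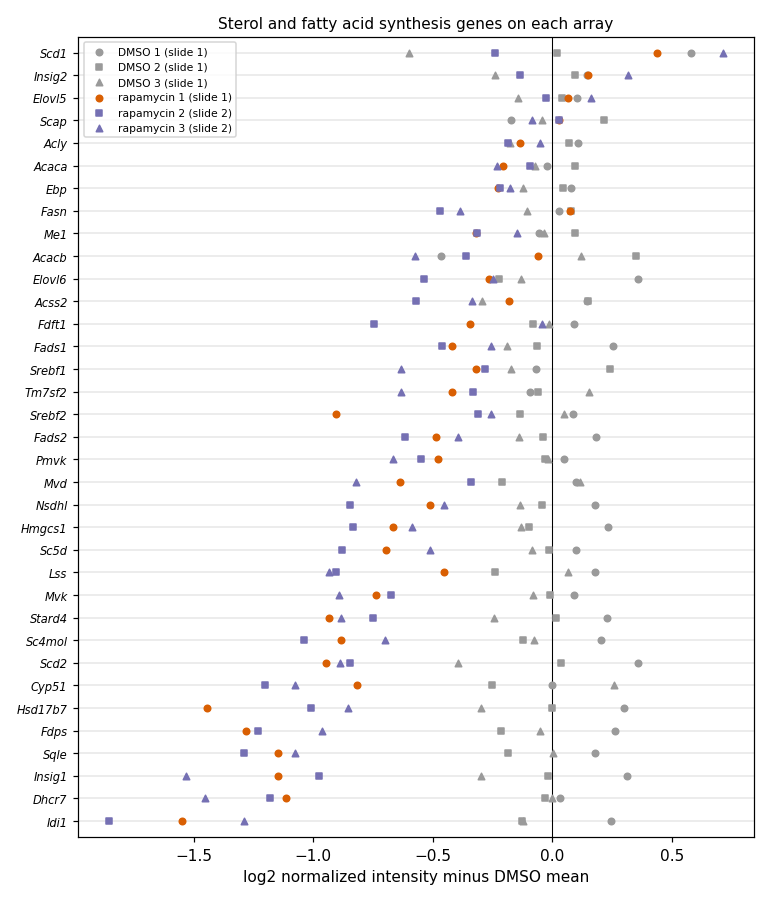
Each of the 35 rows is a sterol or fatty acid synthesis gene and each symbol an array, placed by its log2 normalized intensity minus the mean of the 3 DMSO arrays. From *Idi1* up to *Fads1* in the plot every rapamycin symbol, on either slide, lies to the left of all 3 DMSO symbols, and the 3 members with a mean above DMSO, *Elovl5*, *Insig2* and *Scd1*, overlap.

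The genes of cytosolic ribosomal proteins, in a list that also held elongation factors and *Tpt1*, were higher by small and even amounts. Of 83 members, 65 (78.3%) were above DMSO on every array, none was below on every array, 82 had the higher mean in rapamycin (the exception was *Rpsa* at -0.02), none passed the test, and the median difference was 0.20. The median over the members was 0.14, 0.25 and 0.24 on rapamycin replicates 1, 2 and 3, and 0.01, 0.03 and -0.05 in DMSO, so that the groups did not overlap. *Eef2*, the elongation factor that moves the ribosome along, stood at 6.71, 6.57 and 6.70 in DMSO and at 7.20, 7.36 and 7.34 in rapamycin (0.64 ± 0.10, adjusted p = 0.0864). *Rps6*, the substrate of the S6 kinases, differed by 0.48 ± 0.10 (adjusted p = 0.130). Many ribosomal protein genes have near-identical processed copies, and a probe cannot tell such copies apart.

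Transcripts of this class begin with a run of pyrimidines through which mTOR complex 1 acts on their translation, which RNA levels do not measure. For the 4 members with the largest differences among those with a single RefSeq entry, the 10 bases before and the first 10 bases after the annotated start are shown (GRCm38.p6), with runs of at least 6 pyrimidines in capitals.
Eef2: aaggccgggcgttgacgtca
Rps6: gaagtcgggCCTCTTTTTCg
Rps9: cttgTCTCTCTTTgtctcgg
Rpl5: cgtcgcttgcgtgctggtgg

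Such a run within these 20 bases was found at 32 of 70 promoters of the list (31 of the 60 genes with an entry) and at 20.2% of all promoters. *Rps6* (chr4:86857358-86857377, minus strand) and *Rps9* (chr7:3704031-3704050, plus strand) held it, and *Eef2* (chr10:81176621-81176640, plus strand) and *Rpl5* (chr5:107900518-107900537, plus strand) held none at this annotated start. The genes of ribosome biogenesis, which process ribosomal RNA in the nucleolus, lay near DMSO, with 9 of 55 above and 3 below on every array and a median of 0.02. Their largest differences were *Myc* (0.86 ± 0.23, adjusted p = 0.174), *Npm1* (0.49 ± 0.09, adjusted p = 0.114) and *Nob1* (0.38 ± 0.11, adjusted p = 0.189).

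Mitochondrial oxidative phosphorylation genes went the other way. Of 80 members, 34 (42.5%) were below DMSO on every array and 2 above, 71 had the lower mean, none passed the test, and the median difference was -0.17. The median over the members was -0.27, -0.19 and -0.06 on the rapamycin arrays and 0.04, 0.03 and -0.06 in DMSO, so rapamycin replicate 3 reached the level of DMSO replicate 3. *Ppargc1a*, a coactivator that drives mitochondrial genes, differed by -0.50 ± 0.13 (adjusted p = 0.180), *Ndufab1* of complex I by -0.43 ± 0.11 (adjusted p = 0.165) and *Ndufa6* of the same complex by 0.39 ± 0.11 (adjusted p = 0.180), all without overlap.

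Of 114 cell cycle genes on the array, 74 passed the filter on background in at least 1 group and could be tested. Of these, 28 (37.8%) were below DMSO on every array, 3 above, and *Cdca5* passed the test, having entered it through DMSO alone as said above. Of the 66 members above background on all 6 arrays, 24 (36.4%) were below and 3 above, beside 12.1% and 10.6% of 18557 genes so filtered, and their median was -0.14. The median difference was -0.21, and the median over the members was -0.26, -0.24 and -0.17 in rapamycin against 0.01, -0.02 and 0.02 in DMSO. *Ccna2*, cyclin A2 of S phase, differed by -1.74 ± 0.43 (adjusted p = 0.161), and 2 of the 3 rapamycin arrays had it above background, so that it too was tested through DMSO alone. *Mki67*, the gene of the Ki67 antigen, stood at -1.08, -0.90 and -0.80 in DMSO and at -2.37, -1.85 and -1.91 in rapamycin, without overlap (-1.12 ± 0.17, adjusted p = 0.0782). Of the 6 cyclin-dependent kinase inhibitors tested, *Cdkn1c* was the single member without overlap (0.37 ± 0.12), and *Cdkn2b* overlapped, with a difference of -0.59 ± 0.29 that was -0.26 without rapamycin replicate 3.

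The targets of ATF4, a factor that adjusts amino acid synthesis, gave 15 of 40 members below DMSO on every array (37.5%) and 2 above, with a median of -0.12 and none called. *Cth*, which makes cysteine, differed by -0.96 ± 0.20 (adjusted p = 0.125, above background on 1 of 3 rapamycin arrays and so tested through DMSO alone), the stress cytokine *Gdf15* by -0.90 ± 0.26 (adjusted p = 0.197) and *Psat1* of serine synthesis by -0.80 ± 0.27 (adjusted p = 0.243), and the 2 probes of *Psat1* differed in sign. Lysosome and autophagy genes lay near the background, with 6 of 52 above and 4 below on every array and a median of 0.04, led by *Gpnmb* (1.02 ± 0.37, with overlap, and 0.66 without DMSO replicate 3), *Atg4b* (0.32 ± 0.11) and *Ctsl* (0.31 ± 0.27, with overlap, and 0.12 to 0.57 with an array left out). Glycolysis and hypoxia response genes gave 4 of 36 above and 7 below, with a median of -0.07. Among them *Aldoc*, an aldolase, was lower without overlap (-1.06 ± 0.17, adjusted p = 0.0864). *Angptl4* overlapped (0.73 ± 0.80), and its difference was 1.68 without DMSO replicate 3 and 0.20 at its lowest under the alternative settings.

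**Figure D2:**
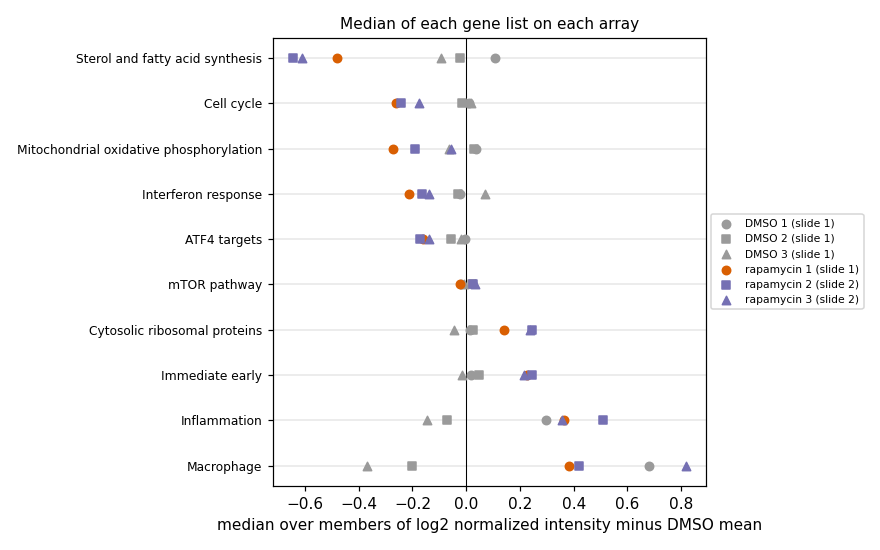
Each row is a gene list and each symbol an array, placed by the median over the list's members of log2 normalized intensity minus the DMSO mean. The 3 rapamycin arrays lie apart from the DMSO arrays for sterol synthesis (-0.65 to -0.48), cell cycle and ribosomal proteins (0.14 to 0.25). They also do so for interferon response, ATF4 targets, immediate early and inflammation genes. Macrophage genes put DMSO replicate 1 (0.68) among the rapamycin arrays.

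The genes of the mTOR pathway itself differed little as a group. Of 62 tested, 11 (17.7%) were above DMSO on every array and 8 (12.9%) below, none passed the test, and the median was -0.02. The drug's partner FKBP12 (*Fkbp1a*) stood at 6.80, 6.82 and 6.99 in DMSO and at 6.67, 7.03 and 6.65 in rapamycin (-0.08 ± 0.14). *Mtor* differed by -0.07 ± 0.10, its partner in complex 2 *Rictor* by 0.20 ± 0.11 and its partner in complex 1 *Rptor* by -0.16 ± 0.10. The substrates *Rps6kb1* (-0.12 ± 0.12) and *Eif4ebp1* (-0.04 ± 0.13) overlapped between the groups.

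*Irs2*, which links the insulin receptor to PI3 kinase, stood at 3.61, 4.15 and 4.50 in DMSO and at 5.44, 4.66 and 4.77 in rapamycin (0.87 ± 0.29, adjusted p = 0.242). *Eif4b*, a translation initiation factor, stood at 2.66, 2.65 and 2.95 against 3.51, 3.52 and 3.32 (0.69 ± 0.13, adjusted p = 0.110). *Prr5* of complex 2 differed by 0.55 ± 0.19, and by less without DMSO replicate 2 (-1.63, against -1.07 and -1.08 on the other DMSO arrays). *Sesn2*, a leucine sensor that restrains complex 1, differed by -0.52 ± 0.14 (adjusted p = 0.187). *Sgk1*, a kinase activated by complex 2, *Ddit4*, an inhibitor of complex 1, and *Fkbp5* also belong to the glucocorticoid response, and their values stand with it. Genes of the insulin and IGF axis gave 6 of 21 above and 1 below with a median of 0.20, among them *Foxo3* (1.01 ± 0.20, adjusted p = 0.118) and *Pappa2*, a protease that frees IGF (0.74 ± 0.21, adjusted p = 0.192).

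**Figure D3:**
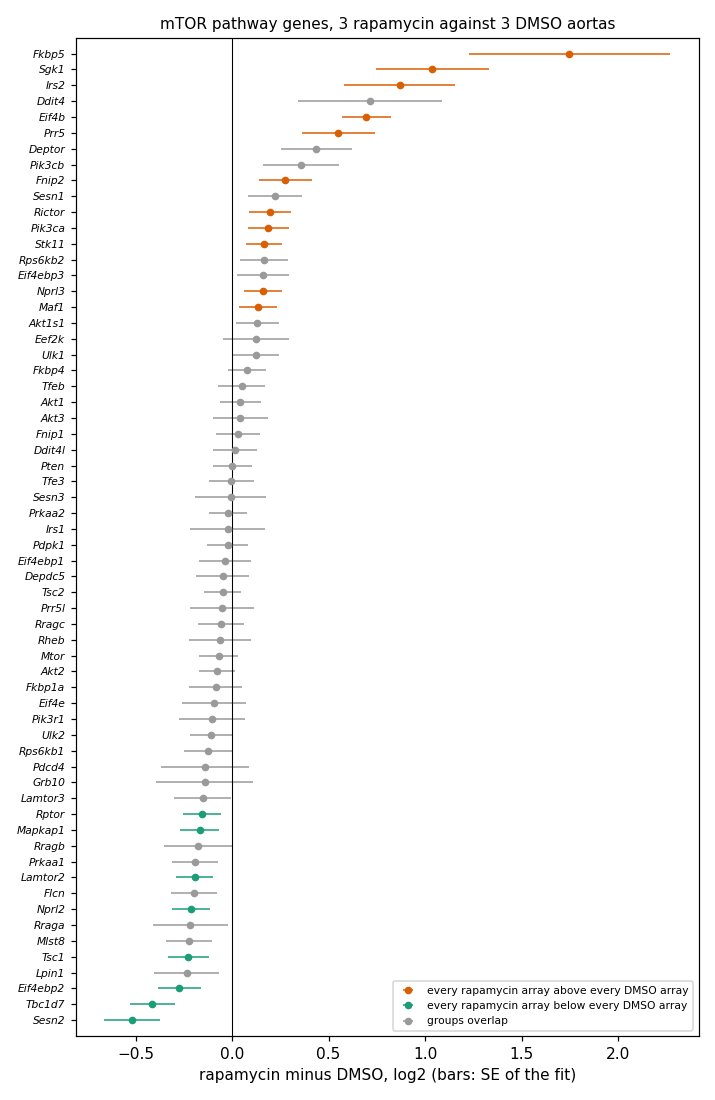
Each point is an mTOR pathway gene at its difference, rapamycin minus DMSO, on the log2 scale, with the standard error of the fit as a bar, and colour marks whether the 3 arrays of each group overlap. Most of the 62 genes lie within 0.3 of 0, and *Fkbp5*, *Sgk1* and *Irs2* stand furthest to the right.

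Below the 3 calls, the falls with the smallest p-values among genes that differed by at least 1 on the log2 scale included, beside *Dhcr7* and *Sqle*, 6 genes outside sterol synthesis. *Cited4*, which binds the coactivators CBP and p300, stood at -0.19, -0.13 and -0.33 in DMSO and at -1.57, -1.28 and -1.42 in rapamycin (-1.20 ± 0.12, adjusted p = 0.0535). *Neu2*, a cytosolic sialidase, stood at 0.30, 0.49 and 0.39 against -0.67, -1.07 and -0.99 (-1.30 ± 0.14, adjusted p = 0.0568). *Atp6ap1l*, named for its likeness to a proton pump subunit, stood at 0.52, 0.55 and 0.56 against -0.67, -0.36 and -0.65 (-1.1 ± 0.12, adjusted p = 0.0600). These genes were chosen for a small p-value and no overlap, so the gap between their groups follows from that choice.

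The semaphorin *Sema5b*, the Kelch-family gene *Klhl10* and *Xkrx* of the XK family were not well above background on any rapamycin array. *Sema5b* was lower by a factor of at least 2.49 (adjusted p = 0.0535), *Klhl10* of at least 1.81 (adjusted p = 0.0535) and *Xkrx* of at least 2.23 (adjusted p = 0.0600). These 3 also entered the test through DMSO alone, so they had to be higher there. All of these genes missed the threshold after correction.

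Among the genes higher in rapamycin none passed the test. Of those that differed by at least 1 without overlap, the 12 with the smallest p-values had adjusted p-values of 0.0535 to 0.0695. That no rise was called depended on the fit, since trend and robust moderation called 178 probes higher and 158 lower. *Frat2*, which binds GSK3 and takes it away from β-catenin, stood at -2.61, -2.64 and -2.30 in DMSO and at -0.50, -0.94 and -0.44 in rapamycin (1.89 ± 0.17, adjusted p = 0.0535), 3.71 times the DMSO level. A fainter probe of *Frat2* differed by 0.12. Its neighbour in function *Frat1* stood at -2.49, -2.59 and -2.71 against -1.44, -0.88 and -0.99 (1.5 ± 0.16, adjusted p = 0.0600). The fit of all 12 arrays, with 1 spread shared by the 4 groups, called *Frat2* (adjusted p = 0.0442) as the single probe of 27801 (0.0036%) in place of the 3 falls. The Wnt pathway list that holds both genes had 6 of 46 members above and 5 below DMSO on every array and a median of -0.02.

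A pair of PIM kinases, which promote survival and protein synthesis alongside AKT, were also higher without overlap. *Pim1* stood at -2.22, -2.14 and -1.97 in DMSO and at -0.85, -0.93 and -1.02 in rapamycin (1.18 ± 0.11, adjusted p = 0.0535). *Pim3* stood at -0.04, 0.12 and 0.21 against 1.13, 1.16 and 1.67 (1.22 ± 0.17, adjusted p = 0.0689). The rapamycin arrays agreed closely for *Pim1*, and replicate 3 was the highest for *Pim3*.

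The other rises in this group were the transporter of steroid sulfates *Slc10a6* (1.46 ± 0.18), *Maff*, a small Maf factor (1.42 ± 0.19), the chemokine *Ccl6* (1.23 ± 0.17), *Spns2*, which exports sphingosine 1-phosphate (1.21 ± 0.16), the lymphocyte repressor *Bach2* (1.11 ± 0.15), *Cebpa*, a factor of myeloid cells and adipocytes (1.04 ± 0.15), and *Lfng*, which adds sugars to Notch (1.01 ± 0.14). The olfactory receptor gene *Olfr90* was at least 1.46-fold higher, as it was not well above background on any DMSO array. It entered the test through the rapamycin arrays alone, and so did *Lfng*, which stood above background on 2 of 3 DMSO arrays. *Ccl6* stood at 1.96, 1.32 and 1.55 in DMSO and at 2.82, 2.81 and 2.89 in rapamycin, and *Bach2* at -2.26, -2.21 and -2.40 against -0.99, -1.49 and -1.06. No DMSO array reached a rapamycin array in either gene.

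Circadian clock genes showed large differences that were uneven between the rapamycin arrays. The clock is a feedback loop in which BMAL1 (*Arntl*) and CLOCK drive the *Per* and *Cry* genes, REV-ERB repressors (*Nr1d1*, *Nr1d2*) and output factors such as *Dbp*, and *Nfil3* opposes DBP at the same sites. Of 23 members, 8 (34.8%) were above DMSO on every array and 2 (8.70%) below, none was called, and the median was 0.15. That median changed sign in 2 of 23 alternative settings (lowest -0.02). *Dbp* stood at 2.04, 1.85 and 2.08 in DMSO and at 2.90, 5.26 and 5.10 on rapamycin replicates 1, 2 and 3 (2.43 ± 0.59, adjusted p = 0.157). *Nr1d1* stood at 0.44, 0.30 and -1.13 against 0.82, 2.94 and 2.80 (2.32 ± 0.66, adjusted p = 0.194), and *Nr1d2* at 0.60, 0.90 and -0.16 against 1.77, 2.53 and 2.83 (1.93 ± 0.35, adjusted p = 0.110). In these 3 genes rapamycin replicate 1, the array that shared a slide with DMSO, was nearest to the DMSO arrays and still above them.

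*Nfil3*, also named after its values were seen, had the mirror pattern, at 4.04, 4.79 and 4.84 in DMSO and at 4.2, 1.93 and 2.15 in rapamycin, so that replicate 1 overlapped with DMSO (-1.80 ± 0.60, adjusted p = 0.244). *Arntl*, chosen likewise, stood at 2.19, 2.16 and 2.04 against 1.98, 0.68 and 0.80. Within slide 1, where rapamycin replicate 1 was set against the 3 DMSO arrays, the differences were 0.91 for *Dbp* and 0.95 for *Nr1d1*. Without rapamycin replicate 1, both probes of *Dbp* were called (differences of 3.19 and 3.68, adjusted p = 0.0107 and 0.00995). The hour of dissection is not given for these samples, and its part in this pattern was not tested.

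*Per3*, a period gene, was higher without overlap (named here for its promoter, after its values were seen), at -3.39, -3.10 and -2.81 in DMSO and -2.37, -1.39 and -2.11 in rapamycin. It carries the element TTATGTAA, which DBP and NFIL3 both bind, 2 times in the 250 bases before its start (chr4:151044666-151044915, minus strand, RefSeq, GRCm38.p6), shown with the element in capitals.
Per3: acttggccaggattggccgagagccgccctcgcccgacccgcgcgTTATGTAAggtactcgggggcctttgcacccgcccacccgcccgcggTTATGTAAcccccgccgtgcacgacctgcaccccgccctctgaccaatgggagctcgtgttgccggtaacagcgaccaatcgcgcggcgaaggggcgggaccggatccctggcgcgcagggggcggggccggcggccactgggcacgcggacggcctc

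TTATGTAA, on either strand, was present in 2 of 25 promoters of the clock list (8%), covering 2 of the 17 genes with an entry. It was present in 0.938% of all promoters. CACGTG, the E-box bound by BMAL1 and CLOCK, was present in 4 of the 25 (16%), covering 3 of the 17 genes, and in 7.15% of all promoters. By their sequences the 2 motifs cannot overlap each other.

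Glucocorticoid response genes were higher in another pair of arrays. Of 28 members, 8 (28.6%) were above DMSO on every array and 1 below, none was called, and the median was 0.69. The median over the members was 0.73, 0.16 and 0.90 on rapamycin replicates 1, 2 and 3 and -0.09, -0.17 and 0.20 in DMSO, so that replicate 2 lay beside the DMSO arrays. *Fkbp5*, a co-chaperone that binds rapamycin too and is a classic target of the glucocorticoid receptor, stood at 0.23, 0.10 and 0.71 in DMSO and at 1.96, 1.06 and 3.27 in rapamycin (1.75 ± 0.52, adjusted p = 0.208, and 1.16 without replicate 3). *Sgk1* stood at 2.67, 2.79 and 3.01 against 4.08, 3.17 and 4.32 (1.04 ± 0.29, adjusted p = 0.192). *Ddit4* stood at 3.07, 2.63 and 3.35 against 4.38, 2.94 and 3.89 (0.72 ± 0.37, with overlap). The *Ddit4* difference was smaller without rapamycin replicate 1 and larger without replicate 2. Replicate 2 was the lowest rapamycin array in all 3 genes.

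Of the other members *Zbtb16* (1.46 ± 0.53, adjusted p = 0.275, and 0.87 without rapamycin replicate 3) and *Tsc22d3* (1.25 ± 0.38, adjusted p = 0.213, with overlap) differed most, and the receptor gene *Nr3c1*, named after its values were seen, differed by -0.25 without overlap. *Per1* belongs to both lists and stood at 3.61, 3.39 and 4.38 in DMSO against 4.83, 4.39 and 4.94. Without rapamycin replicate 3 the median of the list was 0.43, and without replicate 2 it was 0.94.

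**Figure D4:**
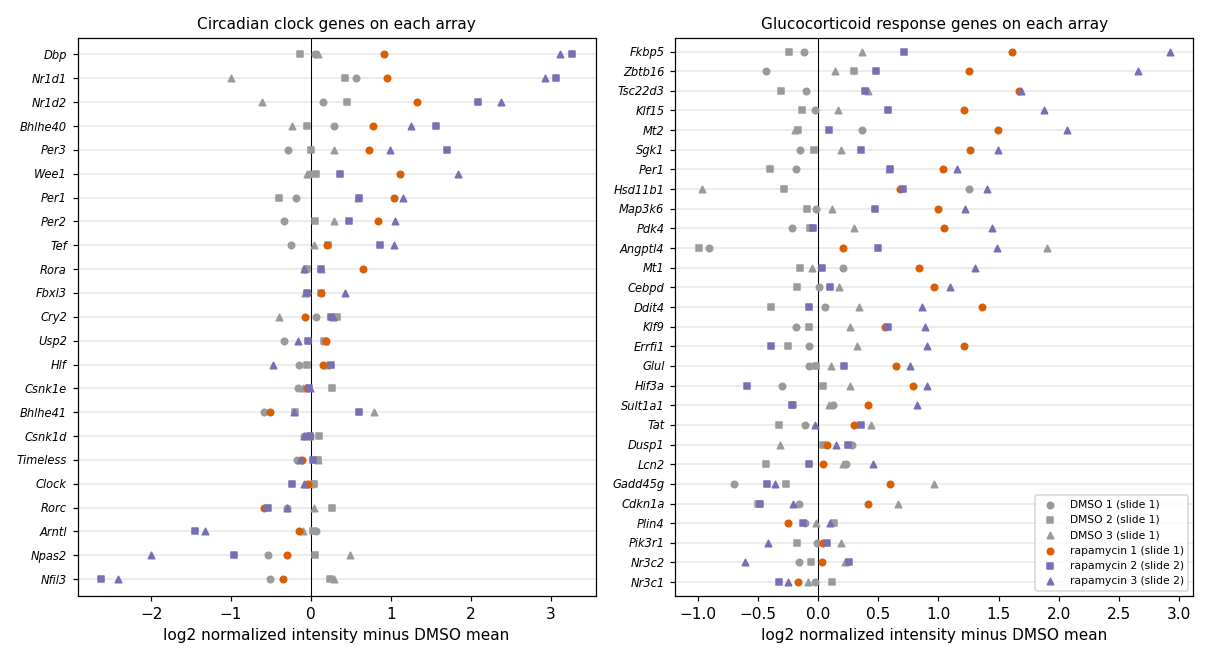
Rows are circadian clock genes (left) and glucocorticoid response genes (right), and each symbol is an array, placed by its log2 normalized intensity minus the DMSO mean. For *Dbp*, *Nr1d1* and *Nfil3* rapamycin replicates 2 and 3 lie far from the rest, whereas for *Fkbp5*, *Sgk1* and *Tsc22d3* it is replicates 1 and 3.

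Immediate early genes switch on within minutes of a stimulus or of handling of the tissue. Of 35 members, 12 (34.3%) were above DMSO on every array and 5 (14.3%) below, the latter a share near the background, with a median of 0.27 and none called. *Maff* stood at 0.71, 0.62 and 0.23 in DMSO and at 1.79, 1.76 and 2.26 in rapamycin. *Jun* stood at 6.31, 6.69 and 6.86 against 5.80, 5.27 and 5.07 (-1.24 ± 0.23, adjusted p = 0.110), and *Atf3* at 4.50, 4.60 and 4.41 against 3.83, 2.75 and 3.25 (-1.23 ± 0.26, adjusted p = 0.129). All 3 were free of overlap, in opposite directions. Heat shock genes lay near the background (0 of 27 above and 3 below, median 0.06), and so did endoplasmic reticulum chaperones (3 of 28 above and 5 below, median -0.10), although *Dnajb9* was higher (0.65 ± 0.15, adjusted p = 0.146) and *Pdia3* lower (-0.45 ± 0.11, adjusted p = 0.148) without overlap. Targets of NRF2 gave 1 of 21 above and 3 below with a median of -0.14, which was -0.04 without DMSO replicate 1 and -0.02 with the title date as a block.

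The mean was higher in rapamycin for 53 of 64 inflammation genes and 25 of 28 macrophage genes, beside 9384 of all 19715 genes. None was called, and DMSO replicate 1 lay among the rapamycin arrays in several of these genes. Of 64 inflammation genes, 21 (32.8%) were above DMSO on every array and 1 below, with a median of 0.47 and none called. That median was 0.31 without DMSO replicate 3 and 0.22 with normexp background correction. The median over the members was 0.37, 0.51 and 0.36 in rapamycin and 0.30, -0.07 and -0.15 in DMSO. *Ccl6* led the list, followed by *Mmp3* (1.15 ± 0.43, and 0.76 without DMSO replicate 3) and the Fc receptor *Fcgr3* (1.13 ± 0.50), both with overlap.

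The macrophage list gave 6 of 28 above and 1 below with a median of 0.52, but a range of -0.37 to 0.68 in DMSO against 0.38 to 0.82 in rapamycin, so the groups overlapped. Its median was 0.81 without DMSO replicate 1 and 0.27 with array brightness as a covariate. Of the 25 members above background on all 6 arrays, 4 (16%) were above and 1 below. The shares over all genes so filtered were 10.6% above and 12.1% below. *Cd163*, a scavenger receptor of resident macrophages, stood at -3.82, -6.12 and -5.20 in DMSO, above background on 1 of 3 arrays, so that it was tested through the rapamycin group alone, and at -3.05, -2.74 and -2.57 in rapamycin (2.26 ± 0.53, adjusted p = 0.147). *Lyve1*, a hyaluronan receptor of lymphatic cells and of some resident macrophages, differed by 1.16 ± 0.31 without overlap (adjusted p = 0.180). The summed linear level of 7 macrophage markers ranged from 23.4 to 43.5 in DMSO and from 38.4 to 50.5 in rapamycin.

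Among genes of MHC class II, which present antigen to T cells, the invariant chain and the classical subunits were higher without overlap, and others were not. *Cd74*, that chain, stood at 2.55, 2.40 and 2.25 in DMSO and at 3.42, 3.58 and 3.10 in rapamycin (0.97 ± 0.15, adjusted p = 0.0864). *H2-Eb1* differed by 0.91 ± 0.19 (adjusted p = 0.124) and *H2-Aa* by 1.04 ± 0.27 (adjusted p = 0.174). By contrast *H2-DMb1*, a chain of the peptide exchanger, differed by -0.05, its partner *H2-DMa* by 0.66 and the class II transactivator *Ciita* by -0.16, all with overlap (named after their values were seen). *Ciita* stood at -1.44, -3.16 and -1.79 in DMSO and at -1.78, -3.25 and -1.83 in rapamycin. Its difference turned positive without rapamycin replicate 2. Over the antigen presentation list 7 of 22 (31.8%) were above and 1 below, with a median of 0.20 that was 0.04 without DMSO replicate 2. Complement and coagulation genes gave 7 of 31 above and none below with a median of 0.35, led by *Cfb*, complement factor B (1.16 ± 0.26, adjusted p = 0.140), and *C1qa* (1.1 ± 0.49, with overlap, and 1.66 without DMSO replicate 1).

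Interferon response genes lay lower, with 16 of 41 (39.0%) below DMSO on every array, 5 above and a median of -0.19. The largest differences were *Gbp6* (-1.14 ± 0.80, and -1.97 to -0.42 with an array left out) and *Gbp4* (-1.09 ± 0.37), both with overlap, and *Mx1* (-0.76 ± 0.31), which was above background on 1 of 3 rapamycin arrays and so tested through DMSO alone, and which differed by -0.47 without rapamycin replicate 2. T and B cell genes gave 4 of 27 (14.8%) below and none above, beside 11.9% and 10.7% of all genes. The mean was higher for 13 of them and lower for 14, with a median of -0.08. Of the 16 above background on all 6 arrays 3 (18.8%) were below, and their median was 0.05. *Cd3d*, a chain of the T cell receptor complex, stood at -2.61, -3.18 and -2.62 in DMSO and at -5.53, -2.12 and -6.14 in rapamycin, so that replicate 2 was above all DMSO arrays. It was above background on 1 of 3 rapamycin arrays and so was tested through DMSO alone. Of 26 neutrophil genes on the array, 9 could be tested. Of these 1 (11.1%) was above, a share near the background, namely *S100a9* (1.01 ± 0.20, adjusted p = 0.116), and none was below.

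Contractile transcripts of the vessel wall differed by small amounts. Of 48 smooth muscle contractile genes, 37 had the lower and 11 the higher mean in rapamycin, 2 were above and 7 (14.6%) below on every array, the median was -0.11, and the summed level of 8 smooth muscle markers was 2858 to 3080 in DMSO and 2598 to 3060 in rapamycin. Among the members, the fibronectin receptor subunit *Itga5* (0.97 ± 0.19, adjusted p = 0.118) and *Myocd*, the coactivator of contractile genes (0.62 ± 0.12, adjusted p = 0.116), were higher and *Gucy1a3*, a subunit of the nitric oxide receptor (now *Gucy1a1*), was lower (-0.52 ± 0.11, adjusted p = 0.127), all without overlap. Endothelial genes gave 10 of 31 (32.3%) above and 1 below with a median of 0.21, among them the mucin *Emcn* (1.00 ± 0.31, adjusted p = 0.213) and *Sox18* (0.82 ± 0.16, adjusted p = 0.114). The median over the members overlapped between the groups, at 0.11 on rapamycin replicate 3 and 0.12 on DMSO replicate 3. The summed level of 6 endothelial markers was 63.1 to 79.9 in DMSO and 71.6 to 110 in rapamycin.

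Matrix genes were mixed. Collagens and crosslinking enzymes gave 3 of 36 above and 9 (25%) below with a median of 0.01, with *Col8a2* at 0.72 ± 0.13 (adjusted p = 0.110), *Loxl2* at -0.56 ± 0.29 (-0.20 without rapamycin replicate 1, and -0.08 by another probe) and *Col12a1* at 0.45 ± 0.17. Elastic fibre genes gave 4 of 19 above and 3 below, led by *Fbln1* (0.68 ± 0.17, adjusted p = 0.164). Among 26 matrix proteases and inhibitors 4 were above and 7 (26.9%) below. The aggrecanase *Adamts4* stood at 1.00, 0.90 and 0.83 in DMSO and at 0.20, -0.21 and -0.76 in rapamycin (-1.17 ± 0.23, adjusted p = 0.119), and *Adamts9* at 1.52, 1.73 and 1.88 against 0.61, 0.52 and 0.70 (-1.1 ± 0.13, adjusted p = 0.0600). Both were free of overlap, and a second probe of *Adamts9* differed by -0.14. TGF-β and BMP genes gave 9 of 34 (26.5%) above and 1 below with a median of 0.15, namely *Tgfbi*, a matrix protein induced by TGF-β (1.05 ± 0.26, adjusted p = 0.158), *Thbs1*, which activates TGF-β (0.88 ± 0.14, adjusted p = 0.0864), the receptor *Tgfbr1* (0.78 ± 0.18, adjusted p = 0.138) and others.

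Gene lists of neighbouring tissues went in different directions, and no member was called. Striated muscle genes gave 18 of 45 (40.0%) below and 4 above with a median of -0.45, and the summed level of 12 striated muscle markers was 72.6 to 88.5 in DMSO and 59.2 to 66.7 in rapamycin, with *Myh1*, *Myh2* and *Myh4* at background on all 6 arrays. Of the 40 members above background on all 6 arrays, 16 were below and 4 above, with a median of -0.37. The muscle LIM protein *Csrp3* stood at -3.85, -2.75 and -1.82 in DMSO and was not well above background on any rapamycin array, so that it entered through DMSO alone, and myoglobin (*Mb*) differed by -2.19 ± 0.65 (adjusted p = 0.206). Brown adipocyte genes gave 6 of 15 (40.0%) below and 1 above with a median of -0.34, including *Cox7a1* (-0.77 ± 0.21) and *Fabp3* (-0.57 ± 0.10, adjusted p = 0.0952), while the summed level of 6 brown adipocyte markers was 21.7 to 30.3 in DMSO and 30.5 to 33.2 in rapamycin. White adipocyte genes gave 3 of 25 above and 2 below, and *Car3*, abundant in fat, differed by -1.29 ± 0.55, and by -0.64 without rapamycin replicate 2.

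Erythroid genes had a median of 1.11, with 9 of 10 means higher and 1 member above on every array, *Hbb-b1* (1.54 ± 0.57, adjusted p = 0.283). DMSO replicate 2 was the low array, and without it the median was 0.53 and *Hbb-b1* differed by 0.91. Mesothelial genes had no member without overlap, and medians from -0.94 to 0.92 on the DMSO arrays alone. Their median difference was 0.48 over 13 members, 0.09 without DMSO replicate 3, and 0.10 over the 5 members above background on all 6 arrays. The nerve list gave 2 of 19 above, a share near the background, *Egr2* (0.82 ± 0.26) and *Tubb3* (0.78 ± 0.31), and no member below. *Tubb3* was above background on 1 of 3 DMSO arrays and so was tested through rapamycin alone. Its difference ranged from 0.18 to 1.14 under the alternative settings. The part of these tissues in the results above was not tested.

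**Figure D5:**
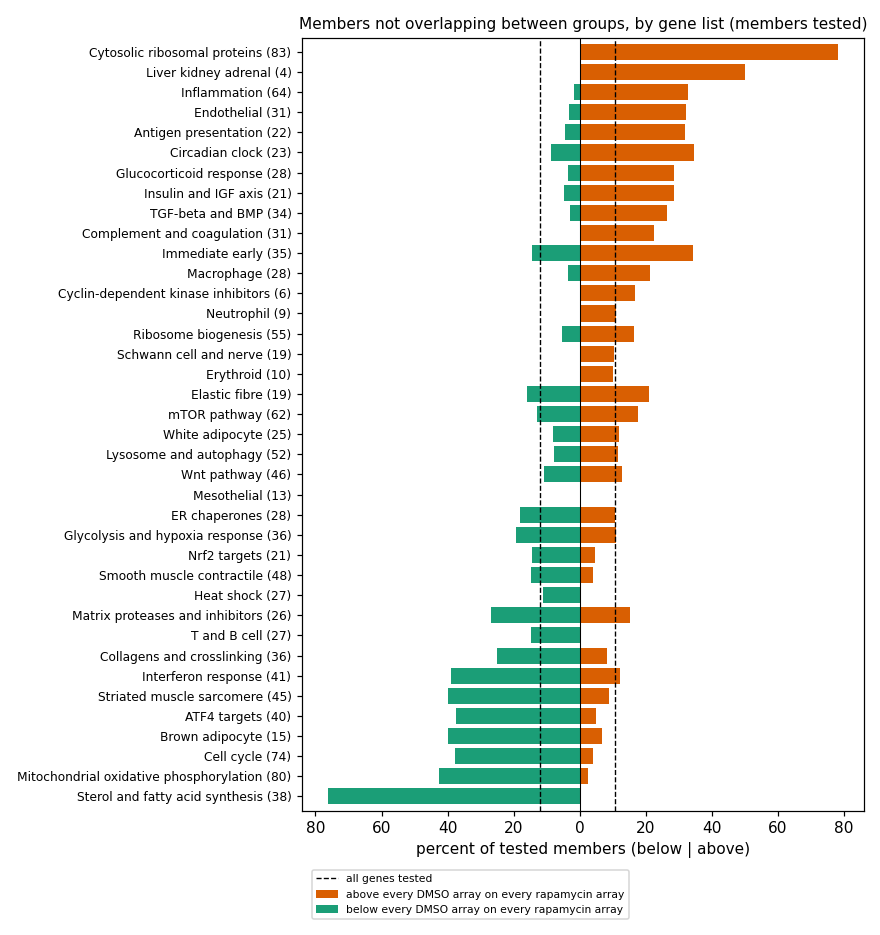
Bars give the percent of each list's tested members (number in brackets) whose 3 rapamycin values lie all above (right) or all below (left) the 3 DMSO values, and the dashed lines mark the same shares over all genes tested, 10.7% above and 11.9% below. Ribosomal proteins (78.3% above) and sterol synthesis (76.3% below) reach furthest from the dashed lines, and lists of under 10 members move by large steps.

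Whether rapamycin acted alike in the challenged aorta was examined on the other 6 arrays, which share no sample with the 6 above. Over all genes tested, 11920 of 19715 (60.5%) had the same sign in both settings, and 57.8% without BA+DMSO replicate 2. Ribosomal proteins had the same sign in 82 of 83 (77 without that array), with medians under challenge of 0.44 and 0.29. Oxidative phosphorylation genes had the same sign in 72 of 80 (71), with medians of -0.54 and -0.75, and sterol synthesis genes in 30 of 38 (31), with medians of -0.44 and -0.70. Circadian clock genes had it in 11 of 23 and glucocorticoid response genes in 14 of 28 (15), and antigen presentation genes in 8 of 22. *Dbp* differed by -1.13 and *Fkbp5* by 0.23 under challenge.

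The test of the difference between both settings, an interaction in the limma fit of all 12 arrays, called 0 of 27801 probes (0%). The smallest adjusted p was 0.308, and 1702 probes had an unadjusted p below 0.05. That count depended on BA+DMSO replicate 2, whose group had a median SD of 0.502 per probe against 0.155 in DMSO, 0.171 in rapamycin and 0.224 in BA+rapamycin. Without that array 3058 probes were called, 1089 with the higher difference under challenge and 1969 with the lower. Among them were *Frat2* (interaction -1.1, adjusted p = 0.0438), *Dbp* (-3.30, adjusted p = 0.0457) and *Irs2* (1.52, adjusted p = 0.0466). *Cck* (-1.57, adjusted p = 0.0697), *Cdca5* (0.26, adjusted p = 0.537) and *Dhcr7* (-0.56, adjusted p = 0.168) were not. No DMSO array lay on slide 2 and no challenged array on slide 1, so that only the rapamycin arrays separate slide from group. With slide as a term in the fit, 0 probes were called with all 12 arrays (658 at an unadjusted p below 0.05) and 0 without BA+DMSO replicate 2 (5343), so that none of the 3058 calls held.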

How the data were processed

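Arrays were grouped by their treatment labels. Scanner files were made with Agilent Feature Extraction 10.7.1.1 per the file headers (9.5.1.1 in the submitters' processing notes), with probes placed on mm9. Their deposited processed signal is a linear intensity after subtraction of background and detrending, without normalization across arrays, and raw spot mean and local background are deposited intensities too. The flags per spot are other deposited values. The deposited matrix holds intensity that its values show to be quantile normalized, since columns correlated at 0.9999 with such a normalization. Each array holds 62976 spots, 3671 of them controls.

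Outlier spots were removed, log2 signals of a probe averaged (6 of 55681 probes lacked a value and were dropped) and the 75th percentile of each array subtracted. Probes well above background on all 3 arrays of a group were tested in limma 3.58.1 (R 4.3.3, package data.table at version 1.17.8; two-sided, Benjamini-Hochberg over all probes, called under 0.05), on the 6 unchallenged arrays because the challenged groups spread more. The prior had 2.76 degrees of freedom. The interaction used all 12 arrays. Precision is limited by how many arrays there are. Each gene stood by its brightest probe. Scripts were tested on simulated data, and figures drawn with matplotlib 3.10.9.

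Genes named were, per direction, called genes and then those of smallest p that differed by at least 1 without overlap, up to 12, the 3 members of each of 38 lists with the largest difference, and the mTOR list. Members and lists were chosen with earlier results of these data known. Where a group had no array above background, the fold was bounded by the lowest signal well above background. Symbols are those of the arrays, and RefSeq held 13787 of 14345 accessions, 1379 under another symbol. Alternatives covered scaling, background, filters, weights, slide, title date, replicate block, brightness and each array left out. The values of a few members are not reported here, though they count in the totals of their lists.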

Additional observations from a re-analysis of the deposited data

How the results depend on the processing

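The direction of the differences of the named genes seldom changed, and the count of calls often did. Many of these genes were chosen for a large difference or no overlap, so a stable direction was partly given by that choice. Some alternatives could not change a difference, as the fit of 12 arrays, the filters and trend and robust moderation used the same group means. Slide as a fixed block gave the same differences as slide 1 alone, and the replicate block the same as the title date. These settings add to the count of values that kept direction. Of 2835 values of 124 named genes under 23 alternatives, 2651 kept direction and side of the threshold, 132 passed it newly, 40 no longer passed it, and 12 changed sign. The sign changes were in 4 genes: *Cdkn1a* (0.15 with array weights, 0.42 within slide 1 and with slide as a fixed block, 0.21 with the brightness covariate, -0.35 to 0.24 with an array left out), *Dnajb1* (0.048 within slide 1 and with slide as a fixed block), *Dnaja1* (-0.11) and *Serpina1a* (-0.066), both with the title date or the replicate as a block. For rapamycin alone, the 3 calls became 1 in the fit of 12 arrays, 170 with normexp background correction (93 higher, 77 lower), 0 without a filter, 27 with probes above background on all 6 arrays (6 and 21), 336 with trend and robust moderation (178 and 158), 113 with array weights (46 and 67), 137 with slide as a random block (62 and 75), and 0 with slide as a fixed block, within slide 1, with the title date as a block and, chosen after seeing the data, with the 75th percentile as a brightness covariate. Unadjusted p under 0.05 was reached by 2177 to 5285 probes in these settings with 0 calls. The rule named in the methods, p under 0.01 and fold over 4 or under 0.25, gave 5 probes, of *Csrp3*, *Dbp* (2 probes), *Cd163* and *1700034E13Rik*. *Csrp3* was not well above background on any rapamycin array, so its fall is known only as at least 2.42-fold. *Cd163* was above background on 1 of 3 DMSO arrays. With an array left out, calls ranged from 0 to 6. Of the list medians, those of sterol synthesis (-0.60 to -0.43), ribosomal proteins (0.12 to 0.25), oxidative phosphorylation (-0.27 to -0.09) and cell cycle (-0.26 to -0.14) kept their sign throughout, as did 27 of the 38 in all. The other 11 changed it in 2 to 9 of the 23 alternatives, namely Wnt (9), T and B cell (7), collagens (6), ribosome biogenesis, elastic fibre and heat shock (4 each), and lysosome, matrix proteases, white adipocyte, cyclin-dependent kinase inhibitors and the clock (2 each; lowest clock median -0.02).

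Numbers in the titles of replicates 2 and 3, which shared a date, allowed a replicate block over 2 pairs. It called 28 probes (12 higher, 16 lower), 2 of them shared with the 3 calls (*Cck* and *Cdca5*). Deviations of same-numbered arrays correlated at -0.07, so the numbers were not taken to pair the samples. For the interaction, calls ranged from 0 to 3058 with an array left out, 1 (*Colec11*) without BA+rapamycin replicate 3, and stayed at 0 under the other alternatives. The smallest adjusted p, 0.308 in the main fit, came near the threshold with the deposited matrix (0.0501) and quantile normalization (0.0535). It was 0.196 with array weights, 0.512 with probes above background on all 12 arrays and 0.601 without a filter. Chosen after seeing the data, slide as a fixed block gave 0, also without BA+DMSO replicate 2. The cause of these shifts was not tested.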
